A study of Mus musculus with 10 samples.

Results

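Mouse embryonic stem cells that lack Pcgf6 were compared with wild type cells by RNA sequencing, 2 libraries of genotype Pcgf6-/- against 3 wild type libraries, chosen by their sample labels. These are 5 of the 10 libraries of the study, and all are labelled C57BL/6. The other libraries are L3mbtl2-/- (2 libraries) and Mga knockout (3 libraries). No treatment or time is given for any group. The labels used here do not say whether the libraries of a genotype came from different clones or cultures. The p-values therefore measure the spread between these libraries alone, and that spread may be technical. The question asked was which genes differ when Pcgf6 is lost, and where that differs from loss of L3mbtl2.

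PCGF6 is one of the Polycomb group RING finger proteins, each of which pairs with the ubiquitin ligases RING1 and RNF2 to form a different kind of Polycomb repressive complex 1 (PRC1), an enzyme that places ubiquitin on histone H2A. The form with PCGF6, called PRC1.6, also holds L3MBTL2, E2F6 with a DP partner, and MGA with MAX, and the last pairs can bind DNA at E2F sites and at E-boxes. In embryonic stem cells the complex is known for keeping germ cell and meiosis genes silent.

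Promoter sequences are shown because PRC1.6 holds proteins that read short DNA motifs. They are those of the 8 members of the germ cell lists with the largest rises among those that had a window in the table. Genes found only in the Xlr or Rhox families listed later were left aside. Rhox13 belongs to the Rhox family too, and was kept as a member of the list of testis genes. Each window runs from 250 bases before to 50 bases after the start of the gene and is printed 5′ to 3′ on the strand of the gene, from RefSeq on GRCm38.p6. Capitals mark the E-box CACGTG, which reads the same on both strands, and the E2F motif GGCGGGA or its reverse complement TCCCGCC. The windows are Rhox13 at chrX:38120590-38120889 on the plus strand, Mageb4 at chrX:86256170-86256469 on the minus strand, Mov10l1 at chr15:88982744-88983043 on the plus strand, Fkbp6 at chr5:135349995-135350294 on the minus strand (1 of its 2 windows in the table), Mael at chr1:166238695-166238994 on the minus strand, Syce1 at chr7:140787805-140788104 on the minus strand, Tex101 at chr7:24672001-24672300 on the minus strand, and Mei1 at chr15:82082226-82082525 on the plus strand.
Rhox13: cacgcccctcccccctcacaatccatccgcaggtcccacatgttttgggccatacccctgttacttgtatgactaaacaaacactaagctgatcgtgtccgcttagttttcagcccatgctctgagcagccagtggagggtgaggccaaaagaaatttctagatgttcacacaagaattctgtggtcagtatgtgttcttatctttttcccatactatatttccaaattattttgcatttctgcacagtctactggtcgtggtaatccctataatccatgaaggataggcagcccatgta
Mageb4: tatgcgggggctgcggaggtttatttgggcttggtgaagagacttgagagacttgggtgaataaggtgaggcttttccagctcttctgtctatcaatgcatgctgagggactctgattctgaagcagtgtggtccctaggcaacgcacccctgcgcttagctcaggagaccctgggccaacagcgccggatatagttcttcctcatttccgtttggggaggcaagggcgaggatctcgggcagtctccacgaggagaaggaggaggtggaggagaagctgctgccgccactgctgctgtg
Mov10l1: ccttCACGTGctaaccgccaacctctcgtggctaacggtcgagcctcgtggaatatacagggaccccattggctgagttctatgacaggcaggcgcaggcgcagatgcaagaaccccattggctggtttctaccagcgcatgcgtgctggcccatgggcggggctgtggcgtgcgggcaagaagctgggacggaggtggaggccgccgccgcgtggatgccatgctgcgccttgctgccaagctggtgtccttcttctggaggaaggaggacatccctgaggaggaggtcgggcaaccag
Fkbp6: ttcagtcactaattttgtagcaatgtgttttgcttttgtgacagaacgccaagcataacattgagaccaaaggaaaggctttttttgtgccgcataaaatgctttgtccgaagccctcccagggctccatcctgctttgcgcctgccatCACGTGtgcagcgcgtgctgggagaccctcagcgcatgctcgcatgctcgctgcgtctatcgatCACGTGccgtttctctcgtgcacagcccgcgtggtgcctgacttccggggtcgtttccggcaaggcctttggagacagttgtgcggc
Mael: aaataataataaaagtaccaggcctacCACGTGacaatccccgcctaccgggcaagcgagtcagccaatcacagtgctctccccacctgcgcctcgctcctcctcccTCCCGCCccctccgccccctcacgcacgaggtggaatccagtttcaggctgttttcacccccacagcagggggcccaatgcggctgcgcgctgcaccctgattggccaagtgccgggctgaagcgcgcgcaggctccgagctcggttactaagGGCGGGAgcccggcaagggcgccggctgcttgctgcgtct
Syce1: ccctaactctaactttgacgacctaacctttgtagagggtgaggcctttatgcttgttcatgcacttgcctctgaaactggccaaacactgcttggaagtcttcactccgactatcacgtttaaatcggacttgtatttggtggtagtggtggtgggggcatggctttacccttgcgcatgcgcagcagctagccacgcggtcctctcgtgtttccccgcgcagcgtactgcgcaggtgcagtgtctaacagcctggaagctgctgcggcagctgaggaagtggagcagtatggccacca
Tex101: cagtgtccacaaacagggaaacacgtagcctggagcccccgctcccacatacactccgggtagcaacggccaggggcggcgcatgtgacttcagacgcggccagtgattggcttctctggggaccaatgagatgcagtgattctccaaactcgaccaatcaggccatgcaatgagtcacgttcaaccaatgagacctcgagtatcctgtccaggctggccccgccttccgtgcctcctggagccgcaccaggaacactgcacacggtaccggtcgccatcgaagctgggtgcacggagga
Mei1: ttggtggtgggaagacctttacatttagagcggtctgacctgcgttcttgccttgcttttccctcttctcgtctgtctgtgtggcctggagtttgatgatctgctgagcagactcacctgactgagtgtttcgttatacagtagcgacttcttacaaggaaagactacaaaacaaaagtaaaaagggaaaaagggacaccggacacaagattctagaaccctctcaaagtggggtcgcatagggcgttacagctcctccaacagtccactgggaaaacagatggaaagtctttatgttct
Mov10l1 and Mael each held 1 E-box and Fkbp6 held 2, while the windows of Rhox13, Mageb4, Syce1, Tex101 and Mei1 held neither motif. Mael also held 2 E2F motifs.

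Of all 32851 promoter windows in the table, 7.2% held CACGTG and 11.3% held the E2F motif. Among 13521 windows of the genes tested here 1352 held the E-box and 20.3% the E2F motif. Of the 65 germ cell genes that rose in Pcgf6 knockout, 57 had a window, and 25 of their 69 windows (36.2%) held the E-box. Among germ cell genes that did not rise, 4 of 31 windows (12.9%) held it. For the E2F motif the share among the risen germ cell genes was 17.4%. The E-box share was 11.5% over all genes that rose, 30 of 143 windows over those that rose at least 4-fold, 9.2% over all that fell and 4.9% over those that fell at least 2-fold. A match says only that these letters stand in the window, not that a protein binds there, and these shares were not tested.

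Gene levels are given as FPKM, fragments scaled to gene length and library depth, so levels of different genes can be compared. Reads recovered from these values numbered 19364390 to 26718624 per library in the 7 libraries fitted. Of 30460 listed genes, 14944 reached 0.5 FPKM in at least 2 of these libraries and were tested on log2(FPKM + 0.1). A fold change on this scale understates the change of low genes. A gene is said to have risen or fallen where limma's adjusted p (Benjamini-Hochberg over all tested genes) was under 0.05. By that rule 4013 genes rose (26.9%) and 3346 fell (22.4%), so 49.2% of all tested genes differed and counts of members should be read against those shares. At least 2-fold rises numbered 843 (5.64%) and at least 2-fold falls 370 (2.48%). Fitted with all 10 libraries, where the Mga knockout libraries add a larger spread, 857 of 15731 tested genes rose and 727 fell. Counts given for all 10 libraries should be read against these numbers, not the shares above. The median over all tested genes was 0.04 on the log2 scale. Genes named here as having risen or fallen against wild type also did so in the fit of all 10 libraries, unless its adjusted p or a lost call is given. For Mid1 and Mir142hg, named later, and for changes of the L3mbtl2 knockout against wild type, this was not checked.

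Pcgf6 itself (chromosome 19, 47033617 to 47050906, minus strand) was measured at 29.4, 29.7 and 27.6 FPKM in wild type and 9.56 and 9.82 FPKM in the Pcgf6 knockout. The groups did not overlap. The level fell by 1.56 on the log2 scale (SE 0.045, limma adjusted p = 1.28e-06), to 33.6% of wild type, so a transcript was still counted over the gene. The labels used here do not say which part of the gene the allele removes. In the L3mbtl2 knockout Pcgf6 stood at 34.5 and 32.8 FPKM.

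Of the 16 PRC1.6 subunit genes, all of them tested, 6 rose, 4 fell and 6 did not pass the test, with a list median of 0.02 on the log2 scale. L3mbtl2, which encodes the subunit with MBT domains, was at 19.8, 20.5 and 20.3 FPKM in wild type and 20.6 and 20.99 FPKM in the knockout, a difference of 0.04 that did not pass. E2f6, which encodes the repressive E2F of the complex, was at 11.1, 11.3 and 11.01 FPKM in wild type and 18.6 and 20.9 FPKM in the knockout. It rose by 0.82 (SE 0.053, limma adjusted p = 3.08e-05) with no overlap between groups, and stood higher still, at 27.9 and 28.7 FPKM, in the L3mbtl2 knockout.
The histone deacetylase gene Hdac2 rose from 30.7, 30.9 and 29.9 FPKM to 46.6 and 45.7 FPKM, a log2 change of 0.60. Wdr5, whose WD40 protein is shared with histone methylation complexes, rose from 54.5, 54.4 and 57.7 FPKM to 83.2 and 83.9 FPKM, a log2 change of 0.59. Mga, the DNA-binding scaffold of the complex, was at 19.7, 18.6 and 17.1 FPKM in wild type and 14.4 and 14.1 FPKM in the knockout. It fell by 0.37 (limma adjusted p = 0.00195), a call lost with all 10 libraries (adjusted p = 0.488). Calls for Max, Hdac1, Cbx3, Cbx1 and Tfdp2 were lost in that fit too, so of the 10 changed subunit genes Pcgf6, E2f6, Wdr5 and Hdac2 kept theirs. The RING ligase genes Ring1 and Rnf2, their partners Rybp and Yaf2, and Tfdp1 did not pass the test.

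**Figure D1:**
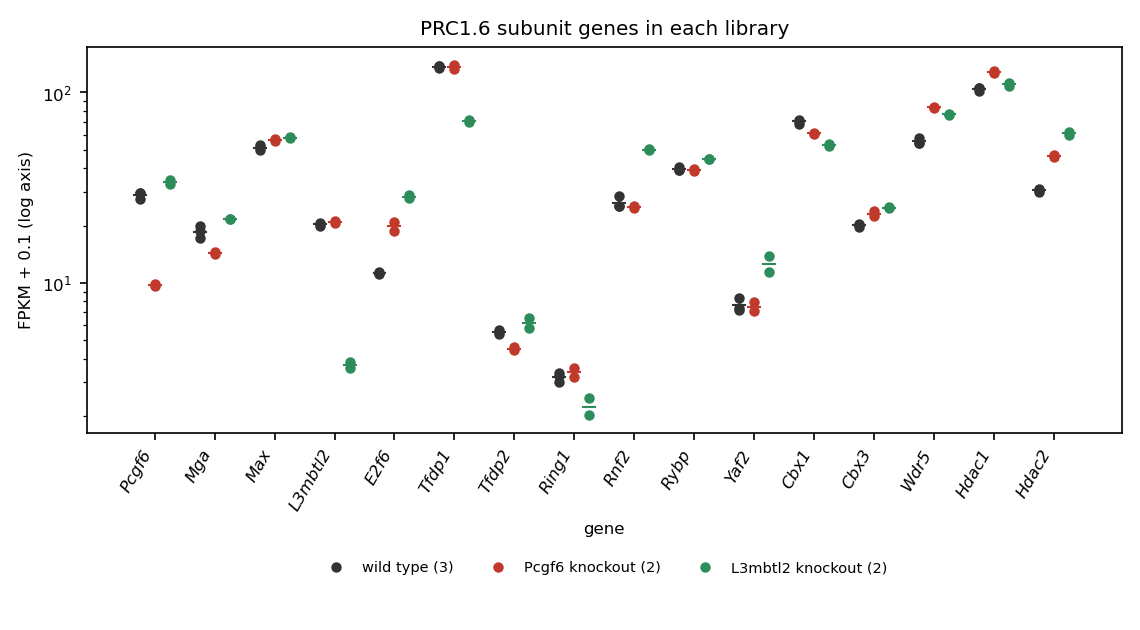
FPKM + 0.1 (log axis) of the 16 PRC1.6 subunit genes in each of 3 wild type, 2 Pcgf6 knockout and 2 L3mbtl2 knockout libraries. Points are libraries and short bars the mean of the log values. Pcgf6 is lowest in the Pcgf6 knockout at 9.56 and 9.82 FPKM and L3mbtl2 is lowest in the L3mbtl2 knockout at 3.72 and 3.49 FPKM.

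Subunits of other Polycomb complexes moved in both directions. Of 24 tested members of the other PRC1 forms 8 rose and 10 fell (2 and 2 with all 10 libraries), among them Pcgf2, which encodes a sister of PCGF6 in the canonical complex, at 41.2, 38.6 and 40.3 FPKM in wild type and 55.8 and 54.1 FPKM in the knockout (log2 change 0.46). Cbx2, which encodes a reader of histone H3 lysine 27 methylation, fell by 0.65, and it lies on chromosome 11, whose genes were lower as a whole. All 12 PRC2 genes were called, 6 higher and 6 lower, but only 1, lower, with all 10 libraries. Phf19, whose protein helps recruit PRC2, fell most, from 7.91, 8.11 and 7.90 FPKM to 4.37 and 3.79 FPKM (log2 change -0.95). Mycn, a MYC family member whose protein pairs with MAX, fell from 81.6, 82.4 and 85.2 FPKM to 41.1 and 40.7 FPKM (log2 change -1.02). It was among 2 of 12 genes of the MYC, MAX and MXD family that fell, while 4 rose; with all 10 libraries only these 2 falls were called.

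Most of the tested germ cell genes rose. The 5 germ cell lists hold 113 genes. Of these 94 passed the filter on low values, 65 rose (69.1% of the tested, against 26.9% of all tested genes), 5 fell and 24 did not pass. A gene at 0 in wild type passes that filter only if a knockout raises it, so the 69.1% is a description. Of the 65, 47 rose at least 2-fold, and the list median was 1.06 on the log2 scale. With all 10 libraries 35 members of 102 tested rose and 2 fell, where 857 and 727 of all 15731 tested genes did.

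The piRNA pathway, which silences transposons in the germ line through small RNAs, had 14 of 19 tested members higher and 1 lower, with a median of 2.15 (11 and 1 with all 10 libraries). Mov10l1, the helicase that feeds precursors into the pathway, was at 0.910, 0.653 and 1.30 FPKM in wild type and 14.1 FPKM in both knockout libraries. It rose by 3.80 (SE 0.23, limma adjusted p = 2.21e-05). Mael, which encodes a protein of the granules where piRNAs are made, was at 3.48, 3.26 and 3.95 FPKM in wild type and 47.4 and 45.1 FPKM in the knockout. This was a log2 change of 3.67 (SE 0.075, limma adjusted p = 3.61e-07), with the knockout libraries about alike and far above all 3 wild type libraries. Fkbp6, a co-chaperone of PIWI proteins, was at 0.239, 0.363 and 1.48 FPKM in wild type and 7.76 and 8.51 FPKM in the knockout, a log2 change of 3.71 with the larger SE of 0.62 that the spread in wild type gives. Piwil2, a PIWI protein that binds piRNAs, rose from 7.64, 8.24 and 8.04 FPKM to 39.8 and 39.4 FPKM (log2 change 2.30). Ddx4, the RNA helicase known as a germ cell marker, rose from 10.2, 9.76 and 9.21 FPKM to 42.0 and 45.0 FPKM (log2 change 2.15). Piwil1 and Tdrkh rose by 2.61 and 2.91. Tdrd12, a Tudor domain member of the same list, went the other way. It fell from 16.45, 16.2 and 15.98 FPKM to 7.77 and 7.68 FPKM, a log2 change of -1.06.

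Genes of the meiotic chromosome axis and synaptonemal complex, the protein scaffold that pairs homologous chromosomes, had 12 of 14 tested members higher, the other 2 did not pass, and 5 of 15 higher with all 10 libraries. Syce1, a central element protein, was at 3.78, 3.66 and 3.83 FPKM in wild type and 45.3 and 45.9 FPKM in the knockout, a log2 change of 3.57 (SE 0.053, limma adjusted p = 1.53e-07). Sycp2, an axial element protein, was nearly silent in wild type at 0.112, 0.0251 and 0.0378 FPKM and rose to 1.45 and 1.25 FPKM (log2 change 3.23). Hormad2, an axis protein that marks unpaired chromosomes, rose by 2.44. Sycp1, the transverse filament, rose by 2.73, with an adjusted p of 0.0954 in limma's fit of all 10 libraries. Sycp3, another axial protein, was at 2.32, 2.46 and 1.75 FPKM in wild type and 3.37 and 3.19 FPKM in the knockout. Its call was lost when either knockout library was left out and with all 10 libraries (adjusted p = 0.678).
Among genes of meiotic recombination and telomere tethering 11 of 18 rose and 7 did not pass, with a median of 0.49, and 6 of 23 rose with all 10 libraries. Tex11, a meiotic recombination factor on the X chromosome, rose from 1.17, 0.743 and 1.06 FPKM to 10.5 and 10.6 FPKM (log2 change 3.31). Mei1, required for meiotic double strand breaks, rose by 3.35 from 0.0795, 0.174 and 0.111 FPKM to 2.22 and 2.04 FPKM. Dmc1, the meiotic strand exchange recombinase, did not pass the test at 8.85, 7.68 and 8.08 FPKM against 7.13 and 7.63 FPKM.

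The list of germ cell RNA regulators, transcription factors and meiosis entry genes had 11 of 18 higher and 2 lower (5 and 1 of 19 with all 10 libraries). Sohlh2, a transcription factor of spermatogonia and oocytes, rose from 5.87, 6.41 and 5.55 FPKM to 57.4 and 59.2 FPKM (log2 change 3.27). Dazl, an RNA-binding regulator of germ cells, rose from 1.15, 0.776 and 1.37 FPKM to 5.47 and 5.70 FPKM (log2 change 2.28). Meioc, which holds cells in meiotic prophase, rose by 2.12 and Boll, a relative of Dazl, by 2.46. Stra8, the retinoic acid target at meiosis entry, stood at 9.84, 9.48 and 8.05 FPKM in wild type and 9.53 and 8.19 FPKM in the knockout, with no detectable difference. Prdm1, a determinant of primordial germ cells, fell from 4.07, 4.13 and 3.64 FPKM to 1.43 and 1.74 FPKM (log2 change -1.27).
In the list of testis genes 17 of 25 rose and 2 fell, and 8 of 26 were called with all 10 libraries, all higher. Rhox13, a homeobox gene of the testis, had the largest rise of all germ cell members, from 0.239, 0.299 and 0.386 FPKM to 45.5 and 43.7 FPKM (log2 change 6.79, SE 0.13, limma adjusted p = 3.12e-07). Mageb4, of the MAGE family, rose from 0.168, 0.135 and 0.226 FPKM to 9.37 and 9.31 FPKM (log2 change 5.11). Tex101, which encodes a membrane protein of sperm precursors, rose by 3.55 to 8.94 and 8.10 FPKM. Taf7l, a germ cell paralogue of a TFIID subunit, rose by 3.14.

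**Figure D2:**
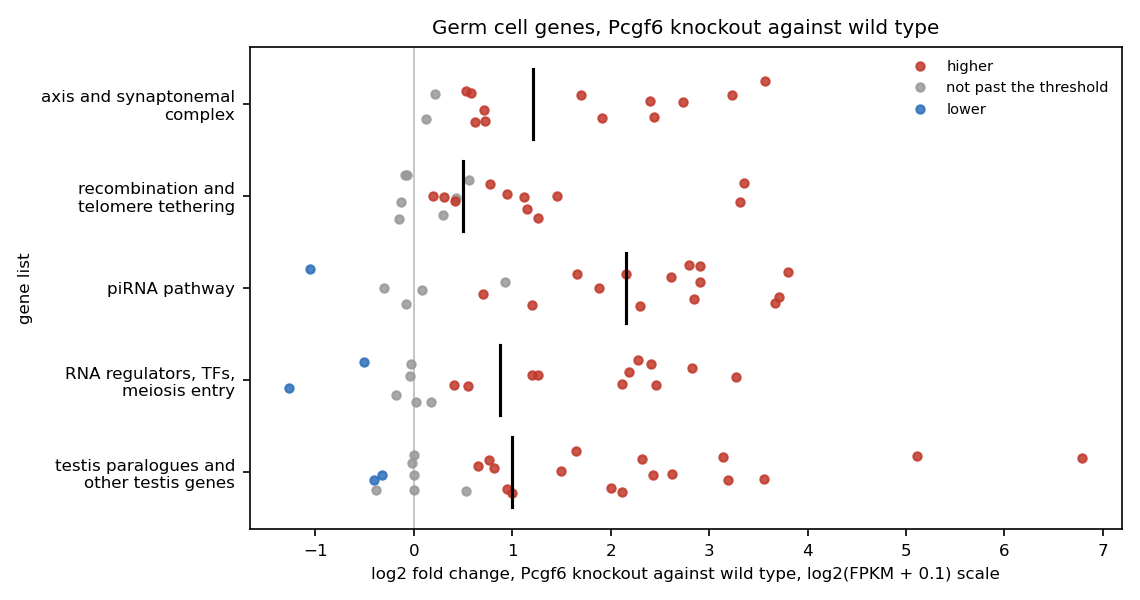
Log2 fold change of each tested gene of the 5 germ cell lists, Pcgf6 knockout against wild type. Red points rose, blue fell and grey did not pass limma's threshold, and black bars are medians, which run from 0.49 for recombination to 2.15 for the piRNA pathway.

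Loss of L3mbtl2 moved these genes to other levels. Both knockouts were set against the same wild type libraries, so the direct test between the knockouts was used, in which 66.7% of all tested genes differed, 30.5% higher and 36.2% lower in the Pcgf6 knockout. Which side was larger turned with the scaling, with 5045 higher and 4817 lower after upper-quartile scaling and 4983 and 4921 with median-of-ratios size factors, and without the chromosomes whose median differed by over 0.2 on the log2 scale (4122 and 3844). Chromosome 1 was among those, with a median of -0.66 and 68.6% of its genes lower in the Pcgf6 knockout than in the L3mbtl2 knockout. Of the 94 germ cell genes 27 were higher and 46 lower in the Pcgf6 knockout. Tex101 reached 319 and 329 FPKM in the L3mbtl2 knockout, a difference of -5.23 on the log2 scale (limma adjusted p = 7.77e-07). Taf7l stood at 126 FPKM in both L3mbtl2 knockout libraries (difference -3.91) and Dazl at 70.9 and 73.6 FPKM (difference -3.67). Zcwpw1, a histone reader of meiotic cells, was at 44.4 and 43.5 FPKM there against 4.19 and 4.49 FPKM in the Pcgf6 knockout (difference -3.31). Mael, which lies on chromosome 1, and Ddx4, on chromosome 13, both differed by -1.84.
Other genes stood higher in the Pcgf6 knockout. Syce1 stood at 3.05 and 2.82 FPKM in the L3mbtl2 knockout, near its wild type level, a difference of 3.91 (limma adjusted p = 6.70e-08). Fkbp6 differed by 3.96, Mei1 by 2.41 and Mov10l1 by 2.25. For Piwil2 and Sohlh2 no difference was detected. Piwil2 stood at 40.4 and 40.3 FPKM in the L3mbtl2 knockout (difference -0.03, limma adjusted p = 0.609) and Sohlh2 at 56.6 and 56.0 FPKM (difference 0.05, limma adjusted p = 0.506).

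Markers of the 2-cell-like state, in which a few stem cells switch on transcripts of the cleaving embryo, were nearly absent in wild type and present in the Pcgf6 knockout. Of 22 listed genes 15 passed the filter, 14 rose and 1 did not pass (13 of 16 rose with all 10 libraries). A gene near 0 in wild type and in the L3mbtl2 knockout passes the filter only if the Pcgf6 knockout raises it. Counts of these genes against either group are therefore a description. The median was 3.88, or 4.56 with the 8 genes without a wild type read set at their bound. Zscan4f, of the zinc finger family that marks the state, had 0 reads in all wild type libraries and 5.90 and 6.05 FPKM in the knockout, or 618 reads, which is at least 374-fold higher. That floor takes 3 counts over the wild type group, and such floors and intervals cover counting error only. Zscan4c had 378 knockout reads against 2 in wild type, a ratio of 343 (95% interval 94.2 to 2840). Gm5662 had a ratio of 129 (43.5 to 629). Tmem92 was at least 71.9-fold higher and Tcstv3 at least 14.5-fold. Members of Zscan4, Usp17l, Xlr and Rhox are near copies that can share reads, so the level of a single member is uncertain.
The deubiquitinase gene Usp17le rose by 4.53 on the log2 scale, from 0.0515, 0.0230 and 0.0462 FPKM to 3.23 and 3.05 FPKM. Arg2, of arginine metabolism, did not pass. In the L3mbtl2 knockout these genes were low: Zscan4f was at 0.139 and 0.232 FPKM, a difference of 4.43 from the Pcgf6 knockout (limma adjusted p = 9.94e-06), and 14 of the 15 were higher in the Pcgf6 knockout. In bulk RNA more cells in the state and more RNA per cell cannot be told apart.

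**Figure D3:**
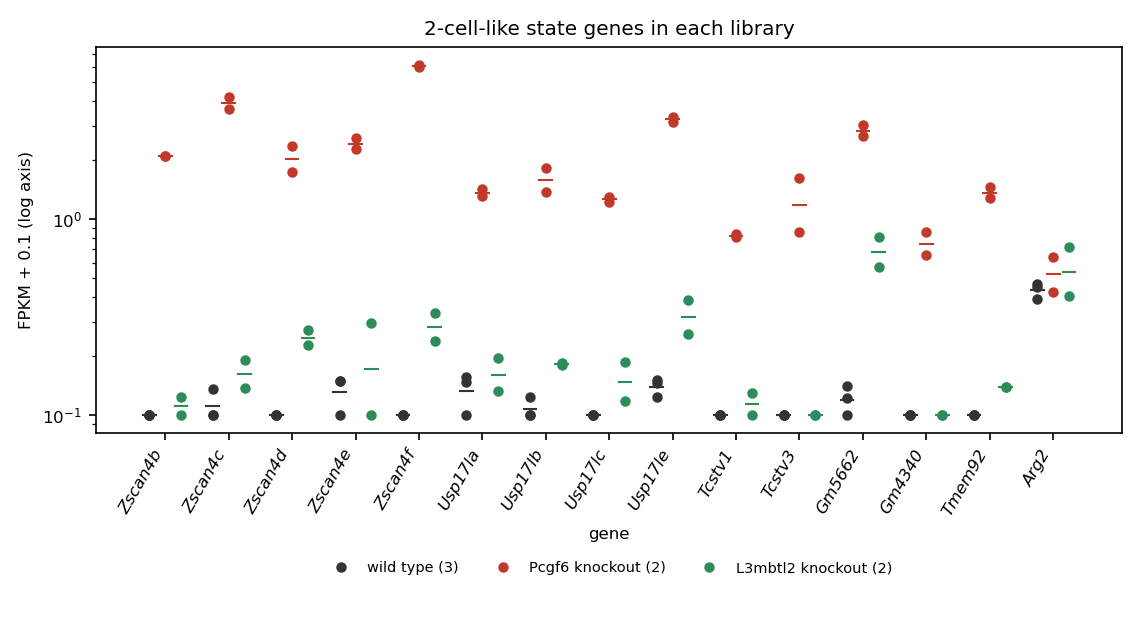
FPKM + 0.1 (log axis) of the 15 tested 2-cell-like state genes in 3 wild type, 2 Pcgf6 knockout and 2 L3mbtl2 knockout libraries. Points are libraries and short bars the mean of the log values. A value at 0.1 is a gene with no reads, and Zscan4f reaches 5.90 and 6.05 FPKM in the Pcgf6 knockout.

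The Xlr, Rhox and MAGE families, which have many members expressed in germ cells, were listed after their values were seen. All 10 Xlr genes, relatives of the synaptonemal protein SYCP3, rose (limma, all 10 also in the fit of all libraries). The filter on low values admits Xlr and Rhox genes low in wild type only through a knockout, so counts of them are a description. Xlr5a had 506 reads in the knockout against 2 in wild type, a ratio of 459 (126 to 3800). Xlr4a and Xlr3c rose by 5.51 and 5.06 on the log2 scale. Xlr itself rose by only 2.52, to 0.959 and 0.929 FPKM, and was at 6.61 and 6.44 FPKM in the L3mbtl2 knockout.
Of the reproductive homeobox (Rhox) cluster 30 genes are listed, 9 were tested and 7 rose (5 of 10 with all 10 libraries). Rhox5, its best known member in stem cells, rose from 27.2, 29.5 and 31.2 FPKM to 293 and 297 FPKM (log2 change 3.33), against 22.9 and 23.1 FPKM in the L3mbtl2 knockout. Rhox10 rose by 5.36 and Rhox1 by 2.79. Rhox6 and Rhox9 rose by 1.86 and 1.34, with adjusted p of 0.198 and 0.188 in limma's fit of all 10 libraries. Of 13 tested MAGE genes 3 rose and 10 did not pass, with a list median of 0.22, and beyond Mageb4 these were Magee2 (log2 change 1.77) and Magel2, whose call was lost with all 10 libraries.

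Pluripotency genes stayed expressed in the Pcgf6 knockout. Of 20 naive pluripotency genes 12 rose and 6 fell (8 and 2 with all 10 libraries). Klf4, a reprogramming factor, rose from 16.71, 16.69 and 17.2 FPKM to 68.05 and 68.7 FPKM (log2 change 2.01, SE 0.029, limma adjusted p = 1.53e-07). Tbx3, a T-box factor of naive cells, rose from 2.87, 2.89 and 3.21 FPKM to 20.5 and 22.0 FPKM (log2 change 2.79). Nanog rose from 142, 146 and 142 FPKM to 218 and 219 FPKM (log2 change 0.61). It was at 600 and 599 FPKM in the L3mbtl2 knockout (difference -1.46). Tfcp2l1 rose by 1.14, Klf5 by 1.01 and Esrrb by 0.75. The Nodal antagonist Lefty1 went the other way, from 338, 352 and 391 FPKM to 53.65 and 54.4 FPKM (log2 change -2.73), and Lefty2 fell by 0.84.
Of 18 core pluripotency genes 10 rose and 6 fell (4 and 3 with all 10 libraries). Dppa5a rose from 1057, 1121 and 1165 FPKM to 2149 and 2248 FPKM (log2 change 0.98), and Tdh, a threonine dehydrogenase of mouse stem cells, rose by 0.88. Pou5f1, which encodes OCT4, was at 110, 122 and 133 FPKM in wild type and 156 and 167 FPKM in the knockout (log2 change 0.41), with an adjusted p of 0.0591 in limma's fit of all 10 libraries. Summed over 8 embryonic stem cell markers the level was 2320 to 2512 FPKM in wild type and 3928 and 4051 FPKM in the knockout, and Dppa5a made up the larger part of that difference. The summed level of the 20 naive genes was 2075 to 2224 FPKM in wild type and 1791 and 1801 FPKM in the knockout. Lefty1, a member of that list, made up the larger part of this difference, while 12 of the 20 rose. Of 16 tested primed epiblast genes 5 rose and 6 fell (3 and 2 with all 10 libraries). Otx2, a driver of the primed state, rose from 1.05, 1.17 and 1.05 FPKM to 2.94 and 2.69 FPKM (log2 change 1.29), Foxd3 rose by 1.33, and Zic2 fell by 0.82.

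Genes of the endoderm formed the lineage list with the most members higher, 14 of 23 tested, with 3 lower and a median of 0.42 (5 and 1 with all 10 libraries). Gata6, a determinant of primitive endoderm, rose from 0.341, 0.258 and 0.259 FPKM to 2.75 and 2.68 FPKM (log2 change 2.88). Gata4, its partner, rose from 0.396, 0.278 and 0.472 FPKM to 3.02 and 2.96 FPKM (log2 change 2.70). Cubn and Sox17 rose by 3.29 and 2.12, both to low levels. The sum of 6 primitive endoderm markers was 4.09 to 5.07 FPKM in wild type and 13.8 and 13.2 FPKM in the knockout, and whether this comes from a few cells was not tested.
Of 18 tested streak and mesoderm genes 7 rose and 4 fell (4 and 1 of 22 with all 10 libraries). Bmp4 rose from 4.27, 3.90 and 4.005 FPKM to 22.8 and 23.0 FPKM (log2 change 2.47), and Cdx1 rose by 2.84. Hand1, on chromosome 11, stood at 15.7, 15.1 and 16.7 FPKM in wild type and 2.69 and 2.25 FPKM in the knockout, with an adjusted p of 0.0881 in limma's fit of all 10 libraries.

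Epithelial genes were mostly lower. Of 24 keratin, junction and sorting genes 18 fell and 2 rose, with a median of -0.58 (8 fell and 1 rose with all 10 libraries). Krt8, a simple epithelial keratin, was at 174, 172 and 177 FPKM in wild type and 22.7 and 21.6 FPKM in the knockout (log2 change -2.98, SE 0.046, limma adjusted p = 1.53e-07). Its partner Krt18 fell from 149, 157 and 154 FPKM to 21.9 and 23.8 FPKM (log2 change -2.74). The desmosome gene Dsp fell by 2.02 on the log2 scale, and Spint1, a protease inhibitor, rose by 0.85. In the L3mbtl2 knockout Krt8 was lower still, at 7.37 and 6.71 FPKM, and 23 of the 24 genes were higher in the Pcgf6 knockout than there.

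**Figure D4:**
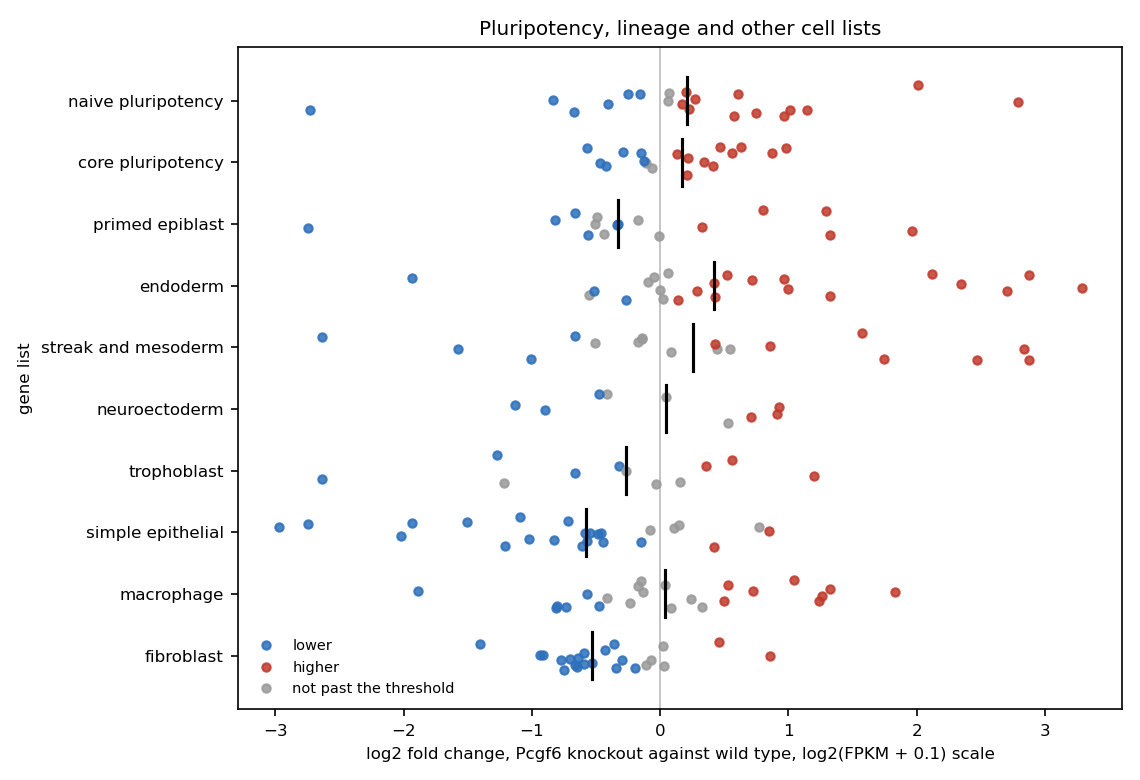
Log2 fold change of each tested gene of 10 pluripotency, lineage and other cell lists, Pcgf6 knockout against wild type. Red points rose, blue fell and grey did not pass limma's threshold, and black bars are medians. The epithelial list lies lowest with a median of -0.58 and the endoderm list highest with 0.42.

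Signalling, metabolic, imprinted and interferon genes were counted in the same way. Of 21 genes of MAPK feedback and immediate early response 12 rose and 5 fell, with only 2 and 1 in the fit of all 10 libraries. Etv4, an ETS factor downstream of FGF signalling, rose from 25.6, 26.2 and 26.7 FPKM to 91.9 and 96.2 FPKM (log2 change 1.84), and the feedback inhibitor Spry2 rose by 0.76. Of 26 glycolysis and hypoxia genes 17 rose and 3 fell (only 4 were called with all 10 libraries, all higher), among them the phosphofructokinase gene Pfkp (log2 change 1.06) and the hexokinase gene Hk2 (0.71). Of 28 imprinted genes 11 rose and 9 fell (4 and 3 with all 10 libraries). Igf2, a growth factor expressed from the paternal copy, fell from 38.8, 39.3 and 39.5 FPKM to 9.06 and 9.003 FPKM (log2 change -2.11). Sfmbt2 fell by 2.14, and Igf2r and Meg3 rose by 0.75 and 0.86. Of 18 interferon response genes 7 fell and 4 rose (3 and 1 with all 10 libraries), with Gbp3 at 1.14, 1.14 and 1.20 FPKM in wild type and 0.132 and 0.0791 FPKM in the knockout (log2 change -2.63).
Of 14 mitochondrially encoded genes 10 rose and 1 fell (only 3 were called with all 10 libraries, all higher), and their share of reads was 2.84 to 3.09% in wild type and 3.47 and 3.61% in the knockout. The ribosomal RNA mt-Rnr2 rose from 159, 148 and 153 FPKM to 444 and 440 FPKM (log2 change 1.53).

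Large falls were also seen outside these groups. The X-linked genes Usp26, a deubiquitinase of the testis, and Efhc2 fell by 3.24 and 2.95. Klhl13, a ubiquitin ligase adaptor on the X chromosome, fell from 317, 305 and 296 FPKM to 45.4 FPKM in both knockout libraries (log2 change -2.75), and stood at 4.02 and 3.77 FPKM in the L3mbtl2 knockout.

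Genes of 3 chromosomes were lower as a whole in both knockout libraries. The median was -0.32 on chromosome 11 and -0.30 on chromosome 16, against 0.07 over the other autosomes, where 18.2% of genes were called lower. On chromosome 11, 52.2% fell, and on chromosome 16, 52.8%. Of the 3346 genes that fell, 924 (27.6%) lay on these 2 chromosomes, which hold 11.8% of the tested genes. The 9 tested genes of the Y chromosome had a median of -2.30, and 6 fell. Eif2s3y, a translation factor gene, fell from 9.41, 9.001 and 8.20 FPKM to 0.476 and 0.484 FPKM (log2 change -3.95), and Ddx3y fell by 3.14. Without these 3 chromosomes, the mitochondrial genes and unplaced contigs 3762 of 13152 genes rose and 2386 fell, and of the germ cell genes 60 of 86 rose and 4 fell. Whether cells with fewer copies of these chromosomes were present was not tested.

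**Figure D5:**
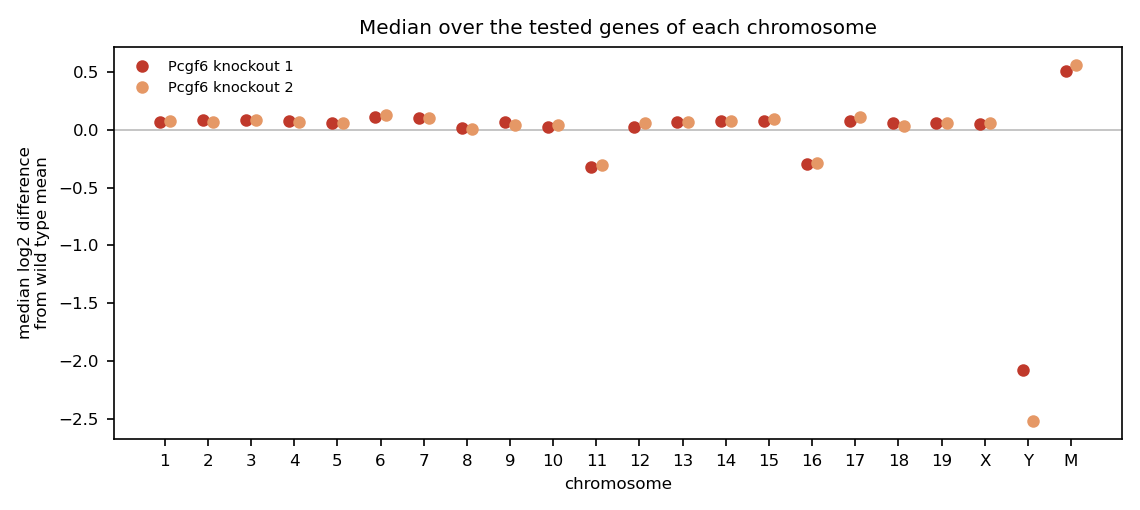
Median over the tested genes of each chromosome of the log2 difference from the wild type mean, for each of the 2 Pcgf6 knockout libraries. Chromosomes 11 and 16 lie near -0.3 and the Y chromosome at -2.08 and -2.52 in both libraries.

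Markers of other cells a culture could hold moved as well. Fibroblast genes, as of a feeder layer, had 17 of 23 members lower and 2 higher, but only 1, higher, was called in limma's fit of all 10 libraries. The sum of 8 such markers was 226.0 to 236.6 FPKM in wild type and 184.2 and 185.3 FPKM in the knockout. Macrophage genes had 8 of 23 higher and 6 lower (only 4 were called with all 10 libraries, all higher), among them Laptm5 at 15.7, 15.8 and 15.5 FPKM in wild type and 40.7 and 38.2 FPKM in the knockout (log2 change 1.33). The sum of 10 macrophage markers was 148.1 to 154.1 FPKM in wild type and 203.6 and 207.3 FPKM in the knockout, with Ptprc, a defining blood cell marker, at 0.041 to 0.065 FPKM over the 5 libraries. Lyz2, a lysozyme gene, carried the higher sum, at 93.3, 96.3 and 93.7 FPKM in wild type and 153 and 159 FPKM in the knockout, with an adjusted p of 0.760 in limma's fit of all 10 libraries. Other markers went both ways. C1qa rose from 2.37, 2.41 and 2.85 FPKM to 6.13 and 6.16 FPKM. C1qb was at 1.42, 2.3 and 2.18 FPKM in wild type and 4.91 and 4.65 FPKM in the knockout. Ctss was at 5.91, 5.26 and 5.29 FPKM against 7.29 and 8.33 FPKM. Cd68 and Adgre1 stood lower in the knockout. Cd68, on chromosome 11, was at 36.0, 38.5 and 37.7 FPKM in wild type and 22.0 and 20.5 FPKM in the knockout (adjusted p = 0.280 in limma's fit of all 10 libraries), and Adgre1 was at 1.87, 1.96 and 2.02 FPKM against 1.15 and 1.0 FPKM. The part of these cells in the results above was not tested.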

How the data were processed

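RNA of mouse embryonic stem cells was sequenced in 10 libraries, with total RNA taken by Trizol and a NEBNext Ultra kit that does not mark strand, per the labels' protocols. Reads of overlapping or antisense genes therefore cannot be told apart. The authors deposited FPKM per gene and library. Per the submitters' processing notes, Bowtie2 2.2.3, TopHat2 2.0.12 and HTSeq 0.6.0 were used with GRCm38, with no scaling step named there. Whole reads were recovered from the FPKM steps and exon lengths (GENCODE M21 for 77.9% of genes above 0, tolerance 0.005 of a read) and served for depth, floors and an alternative count-based fit.

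Values were tested as log2(FPKM + 0.1) with limma 3.58.1 (R 4.3.3), empirical Bayes with a mean trend, and Benjamini-Hochberg adjustment across the tested genes at a threshold of 0.05. The filter kept genes that reached 0.5 FPKM in 2 or more of the fitted libraries. The fit used 7 libraries, wild type, L3mbtl2 knockout and Pcgf6 knockout. The Mga knockout libraries were left out because the median SD between them (0.3251 on the log2 scale) was larger than in the other groups (0.0613 to 0.0837). The script was tested on simulated data.

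The members and gene lists were chosen with earlier results of these data known. Of 38 lists 3 (Xlr, Rhox and MAGE) were added after values were seen, and symbols of others were edited then. Named genes are the PRC1.6 subunits, the 12 largest rises and falls against wild type and 6 each way against L3mbtl2 knockout with a mean of at least 1 FPKM in the higher group and no overlap between groups, predicted genes left out, and up to 5 called members per list by smallest p, with defining members that were not called. Some genes outside this rule are named after their values were seen. Fewer are named than the rule allows, and some results are not reported here. Alternatives were pseudocount, filter, scaling, variance prior, a count-based fit, sets of libraries, a replicate block, chromosomes left out and each library left out.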

Additional observations from a re-analysis of the deposited data

Results flagged for a closer look

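Named genes were flagged where they were called in opposite directions against wild type in the Pcgf6 and L3mbtl2 knockouts. The direct limma test between the knockouts also had to pass (Benjamini-Hochberg adjusted over all tested genes). Passing that test was thus part of the rule and is no separate support. Both knockouts were compared with the same 3 wild type libraries.

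Otx2, a driver of the primed state, rose by 1.29 in the Pcgf6 knockout and fell by 1.24 in the L3mbtl2 knockout, a difference of 2.53 (adjusted p = 5.36e-06). Rhox6 changed by 1.86 and -1.08, a difference of 2.93 (adjusted p = 3.36e-06). Rhox9, its neighbour in the X-linked cluster, changed by 1.34 and -2.01, a difference of 3.35 (adjusted p = 2.76e-06). In limma's fit of all 10 libraries the rises of Rhox6 and Rhox9 against wild type were not called (adjusted p = 0.198 and 0.188). There the flag rule would not be met for these genes. The microRNA host gene Mir142hg changed by 1.76 and -2.82, a difference of 4.58 (adjusted p = 0.00038). It was at 1.40, 1.39 and 0.559 FPKM in wild type and 2.72 and 5.18 FPKM in the Pcgf6 knockout, and its reads could also come from an overlapping microRNA gene on the other strand.

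The Y-linked genes Ddx3y and Uty were lower in the Pcgf6 knockout and higher in the L3mbtl2 knockout. Ddx3y changed by -3.14 and 1.39, a difference of -4.53 (adjusted p = 1.51e-07). Uty changed by -2.30 and 1.0002, a difference of -3.30 (adjusted p = 5.69e-06).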

How the results depend on the processing

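Pcgf6 was lower under every alternative run. Of 253 named results 166 stayed called or stayed uncalled under every alternative. With all 10 libraries 87 lost their call, 9 of these under at least 1 other alternative too. No called result changed direction. Some results that were not called, among them Stra8, Tfdp1 and Yaf2 against wild type, changed sign. With all 10 libraries 857 genes rose and 727 fell against wild type, and 1575 of these 1584 calls were also made with 7 libraries; against the L3mbtl2 knockout 2187 were higher and 2616 lower. Leaving out 1 library gave 2791 to 3784 genes higher and 2593 to 3080 lower against wild type, and 3881 to 4129 higher and 4293 to 4826 lower against the L3mbtl2 knockout. A replicate block, where the numbers are only names (correlations of same-numbered libraries -0.012, 0.027 and 0.028), gave 3764 higher and 3087 lower against wild type, and 4569 and 5476 against the L3mbtl2 knockout. Scaling by median of ratios moved the share of calls that were higher from 54.5% to 48.9%, and leaving out the shifted chromosomes moved it to 61.2%. With 2 knockout libraries the spread rests on few libraries, and genes with under 3 reads in a group have wide intervals.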

Other observations

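Calls between the knockouts also included genes outside the lists. Mid1, a ubiquitin ligase gene on the X chromosome, was at 18.1 and 16.6 FPKM in the Pcgf6 knockout and 0.733 and 0.730 FPKM in the L3mbtl2 knockout, a difference of 4.39 on the log2 scale (limma adjusted p = 6.70e-08). Mt4, a metallothionein gene, differed by 4.40, and Akr1c21, an aldo-keto reductase gene, by -5.29. Mt4 had 89 reads in the Pcgf6 knockout against 3 in the L3mbtl2 knockout, and Akr1c21 had 2 against 346. Ube2dnl1 differed by -4.78, with 14.6 and 11.9 FPKM in the L3mbtl2 knockout. Of these, Mid1 was called higher in the Pcgf6 knockout than in wild type by 0.30, and Mt4, Akr1c21 and Ube2dnl1 were not called against wild type.

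Among S phase and E2F target genes 12 of 25 rose and 3 fell against wild type (only 2, both higher, were called with all 10 libraries), with E2f2, an activating E2F, at 1.64, 1.53 and 1.49 FPKM in wild type and 4.04 and 4.66 FPKM in the Pcgf6 knockout (log2 change 1.43).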
